A study of Mus musculus with 2 samples.

Results

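The UBE2 genes encode most of the ubiquitin-conjugating (E2) enzymes, and their mRNA was followed here in mature mouse oocytes from slimmed and from control mothers. Members were taken by name: every gene of the deposited count table whose symbol, matched by Ensembl identifier, starts with Ube2. The 40 genes so named included 3 annotated pseudogenes, which were left out, so 37 of 36227 genes remained. Of these, 35 encode E2 or E2-like proteins. The other two carry the name only: Ube2cbp encodes a protein that binds E2 enzymes and acts as an E3 ligase, and Ube2uos is an antisense RNA in the Ube2u locus. Ube2d2a was not analysed here.

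Both groups were female ICR mice, an outbred strain, that had become obese by 12 weeks of age in standard laboratory housing. The slimming group then spent 4 weeks in enriched-environment cages (EE cages in the labels), and the control group, labelled as fed a standard diet, stayed in normal cages. At 16 weeks each of 3 mice in a group gave 3 naturally ovulated oocytes at metaphase II, and these 9 were pooled in 1 tube for 1 library. Nothing therefore measures the spread between mice, the groups could not be tested, and every difference is one between 2 pools. Paired values are given with slimming before control. In such pools less RNA of a gene per cell and fewer cells that carry it cannot be told apart.

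Ubiquitin reaches its targets through a relay. An E1 enzyme activates it, an E2 enzyme takes it over on a cysteine, and an E3 ligase brings the loaded E2 to the protein to be marked; the E2 often decides which kind of chain is built. A few E2 enzymes carry related small proteins instead, such as SUMO or NEDD8. In the egg this machinery is known for the exit from metaphase II, when the anaphase-promoting complex marks cyclin B and securin for destruction, and for the removal of maternal proteins after fertilisation. The mature oocyte is transcriptionally silent, so the mRNA measured in it is a store laid down during growth.

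Sequencing depth was 20947962 counts for slimming and 20242289 for control, and levels are given in CPM, that is relative to this total. A gene with no count may still lie at up to 3 counts, which is 0.143 and 0.148 CPM. A gene was taken as expressed when either library reached 10 CPM, a level met by 5714 genes. Ratios are log2 of slimming over control after TMM scaling, which aligns the bulk of the genes, each with an exact 95% counting interval. Intervals and limits speak for the counting error of reads alone. PCR copies are not independent molecules, so for molecules the intervals can be too narrow. Of 12 oocyte markers all 12 had at least 10 counts, 1 of them 2-fold higher, with Gdf9 at 44674 and 45613 CPM. Of 13 cumulus and granulosa markers 6 were at 0 in both libraries (Amh, Amhr2, Foxl2, Fshr, Ptx3 and Hsd17b1), and the list summed to 532 and 528 CPM, of which Serpine2 alone held 491 and 475 CPM. The 12 immune markers summed to 25.8 and 42.9 CPM, with Cd74 and Cd3e at 0, and the 8 oviduct markers to 6.44 and 13.1 CPM, with Foxj1 at 0. In each of these 3 lists, 2 of the 4 or 5 genes with at least 10 counts were 2-fold lower and 0 higher. Inha (0 against 63 counts), Inhba (0 against 12), Tyrobp (0 against 57) and Fcer1g (0 against 62) were counted in the control library alone. The 2-fold lower oviduct genes were Tppp3 (93 against 210 counts) and Epcam (10 against 20). Of the other genes with at least 10 counts in these lists, Serpine2, Laptm5 and Dnah5 had log2 ratios of 0.02, 0.12 and 0.69. Cyp19a1, Nr5a2, Cd68, H2-Aa and Krt8 had log2 ratios of -0.21, -0.66, -0.46, -0.64 and -0.90. H2-Aa held 17.9 and 27.2 CPM of the immune sum. The part of other cells in the UBE2 values was not tested.

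Of the 37 UBE2 genes, 18 were expressed, 11 lay between 1 and 10 CPM, 3 had counts under 1 CPM, and 5 had no entry in the table. No expressed member was 2-fold apart: 0 of 18 passed that step upwards and 0 downwards, which 2.73% and 1.94% of all expressed genes did. At a smaller step of 1.5-fold, 3 members were higher (Ube2cbp, Ube2t and Ube2q2) and 0 lower, against 10.3% and 7.16% of expressed genes. Their log2 ratios ran from -0.40 (Ube2r2) to 0.89 (Ube2cbp), with 9 above 0 and 9 below, and 51.4% of all expressed genes were above 0 and 48.6% below. Ube2e1, at 0.00, changes side with the scaling (0.03 with total counts), so that 10 members were above 0 and 8 below with total counts or DESeq2 size factors. The median of the 18 was 0.02, and that of all expressed genes was also 0.02. The counting interval left out 0 on the higher side for 8 members and on the lower side for 6, together 14 of 18, against 72.9% of expressed genes. The authors' deposited table marked 12 of the 18 at a p-value of 0.001 that compares the reads of 2 libraries, and it marked 57.1% of all expressed genes.

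**Figure D1:**
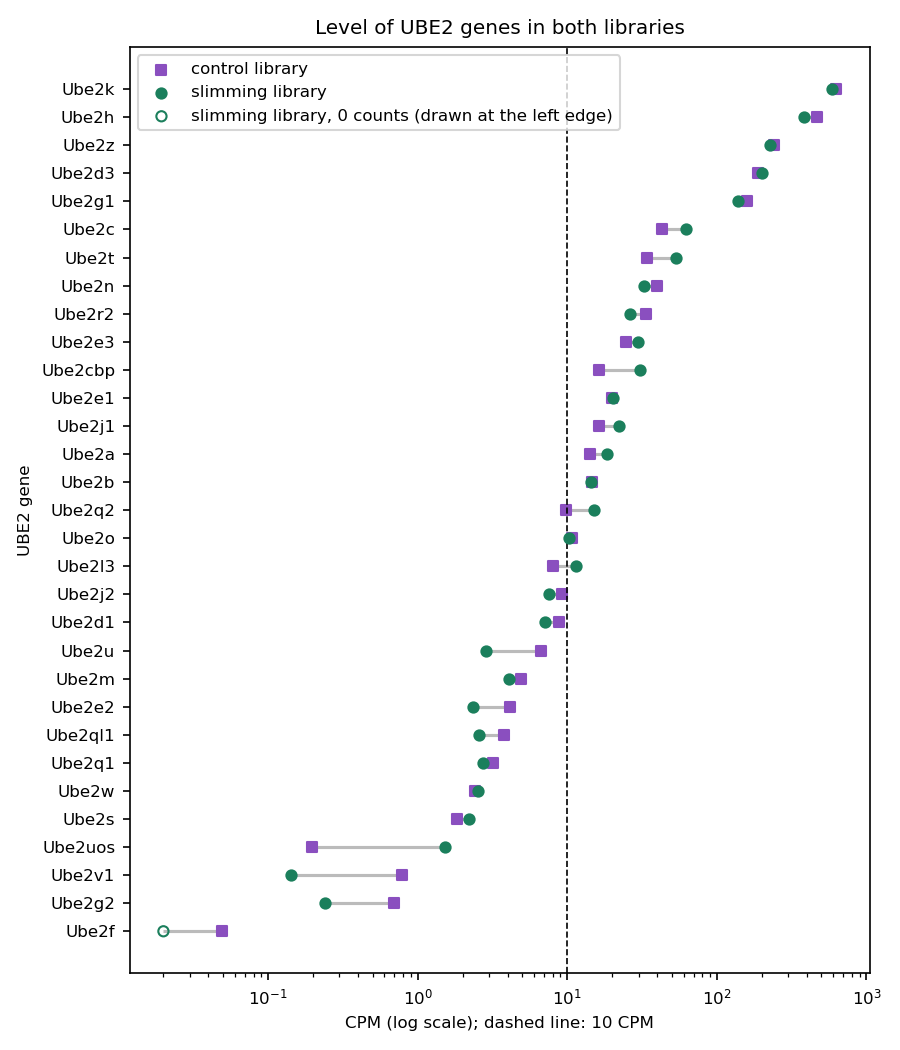
Level of 31 UBE2 genes with counts, in CPM on a log axis, with the slimming library as circles and the control library as squares and a dashed line at 10 CPM. Ube2k stands highest in both libraries (584 and 627 CPM), and the pairs of symbols lie close together above the line.

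The family's mRNA was held by a few members. Ube2k, Ube2h, Ube2z, Ube2d3 and Ube2g1 together made up 79.9% (slimming) and 83.5% (control) of the family's counts. Ube2k (ENSMUSG00000029203, chromosome 5) builds ubiquitin chains without needing a ligase in the test tube and led the family. It had 12239 against 12700 counts, or 584 and 627 CPM, and in the control library it lay above 95.5% of all expressed genes. Its log2 ratio was -0.13 (interval -0.17 to -0.10), 1.10-fold lower, so the 2 libraries were nearly level for it. Ube2h (chromosome 6), the E2 of the CTLH ligase complex, had 380 against 469 CPM, 1.26-fold lower (log2 -0.34, -0.38 to -0.29). Of the 50-base words of its longest transcript, 46.3% also occur in transcripts of other genes, nearly all in Gm26526, a long noncoding RNA on chromosome 7. How the authors treated reads with several matches is not given in the sources used here, so the count of Ube2h is uncertain.

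Ube2z (chromosome 11), which is loaded by the E1 enzyme UBA6, had 226 against 241 CPM, at a log2 ratio of -0.12 (-0.18 to -0.06). Its E1, Uba6, was counted far lower, at 3.48 against 6.52 CPM (log2 -0.93, -1.37 to -0.51). Ube2d3 (chromosome 3), a general partner of RING ligases, had 199 against 190 CPM, and its interval included 0 (log2 0.04, -0.02 to 0.10). Of its words 16.5% are shared with other transcripts. The pseudogene Ube2d-ps, which was left out of the family, had 33.8 against 15.5 CPM, 2.13-fold higher (log2 1.09, 0.90 to 1.29). Ube2g1 (chromosome 11), of the enzymes that build degradative chains, had 138 against 158 CPM, 1.17-fold lower (log2 -0.23, -0.31 to -0.16). The 5 members with a mean of at least 100 CPM were thus lower in the slimming library in 4 cases, with a median log2 ratio of -0.13. Of 1536 genes at that level, 50.1% were lower, with a median log2 ratio of 0.00. Over the whole family the sums were 1912 against 2019 CPM. The 11 members of mean 10 to 50 CPM did not share that direction: 6 were higher and 5 lower (7 and 4 with the other scalings, again through Ube2e1), while 48.1% of the 2958 genes at this level were lower. All 3 members past 1.5-fold belong here (3 of 11 higher against 12.0%, 0 lower against 7.98%). Of these 3, Ube2q2 reached 10 CPM in the slimming library alone, so its place among expressed members depends on its being higher there.

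**Figure D2:**
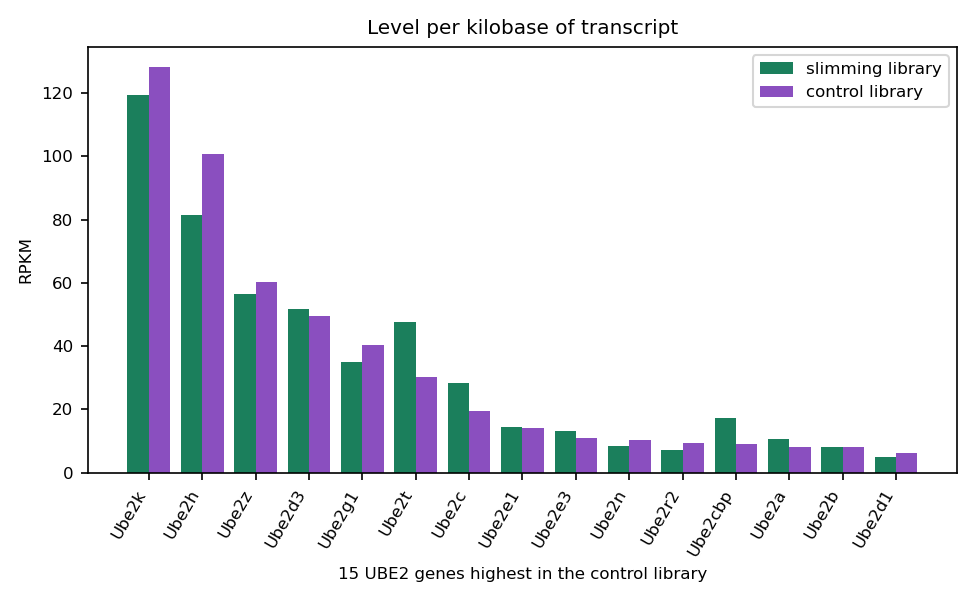
Level per kilobase of the longest transcript (RPKM, bars from 0) for the 15 UBE2 genes highest in the control library, with 1 pair of bars per gene. Ube2k and Ube2h lead in both libraries, and Ube2t stands higher in the slimming (47.7 RPKM) than in the control library (30.4 RPKM).

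Per kilobase of transcript (RPKM, with the longest transcript of each gene), Ube2k stayed highest, with 119 and 128 RPKM. That is 22.2% and 23.9% of the summed RPKM of the family. Ube2h (81.5 and 101 RPKM), Ube2z (56.6 and 60.3 RPKM) and Ube2d3 (51.9 and 49.5 RPKM) followed in the same order in both libraries. Ube2t, whose transcript is short, came next in the slimming library at 47.7 RPKM, ahead of Ube2g1. In the control library this pair stood the other way round, at 30.4 RPKM for Ube2t and 40.3 RPKM for Ube2g1. The members from Ube2c (28.3 and 19.5 RPKM) downwards each held less than Ube2g1 in both libraries. Because the cDNA was primed from the poly(A) end, a level per length can understate long transcripts.

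The E2 enzymes of the anaphase-promoting complex were Ube2c, which starts chains on cyclin B and securin, and Ube2s, which extends them. Ube2c (ENSMUSG00000001403, chromosome 2) had 1298 against 864 counts, or 62.0 and 42.7 CPM, 1.42-fold higher (log2 0.51, 0.38 to 0.63). Of its 50-base words 17.8% are shared, mostly with Tnnc2, a muscle troponin gene that overlaps it on the opposite strand and had 13 and 0 counts. Ube2s (chromosome 7) was far lower, with 46 and 37 counts, or 2.20 and 1.83 CPM, and its interval included 0 (log2 0.23, -0.42 to 0.90). The subunits that Ube2c works on were not higher in the slimming library beyond counting error. Anapc11, the RING subunit, had 21.9 against 24.3 CPM (log2 -0.18, -0.36 to 0.01), and its cullin partner Anapc2 had 9.45 against 8.84 CPM (log2 0.06, -0.23 to 0.36). Anapc4, a scaffold subunit, had 32.2 against 39.2 CPM, at a log2 ratio of -0.32 (-0.47 to -0.17).

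The largest ratios among expressed members belonged to Ube2cbp, Ube2t and Ube2q2. Ube2cbp (ENSMUSG00000032415, chromosome 9), the E2-binding protein, had 645 against 328 counts, or 30.8 and 16.2 CPM, 1.86-fold higher (log2 0.89, 0.70 to 1.09). The interval reached past 2-fold. Ube2t (ENSMUSG00000026429, chromosome 1), the E2 of the Fanconi anaemia pathway of DNA crosslink repair, had 1114 against 686 counts, or 53.2 and 33.9 CPM, 1.54-fold higher (log2 0.62, 0.48 to 0.76). With the trend of the ratio on transcript length removed, Ube2t stood at 0.41 on the log2 scale, under 1.5-fold. Its ligase, Fancl, was close to level at 13.9 against 14.9 CPM (log2 -0.12, -0.36 to 0.11). Ube2q2 (chromosome 9), of the large E2 enzymes, had 318 against 198 counts, or 15.2 and 9.78 CPM, 1.52-fold higher (log2 0.60, 0.34 to 0.87). Of its words 20.9% are shared, all with the gene Gm4895, which had 40 and 28 counts. Just inside the 1.5-fold step stood Ube2q2 and just outside it Ube2c.

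Promoter sequence is shown for 4 of these members, for Ube2cbp and Ube2t with the largest ratios, for the cell cycle gene Ube2c, and for the most abundant member, Ube2k. Each is the RefSeq window of 300 bases on GRCm38.p6, from 250 bases before to 50 bases after the annotated start, read 5′ to 3′ along the gene. Capitals mark 3 motifs on either strand: the CCAAT box bound by NF-Y, TTTGAA (the core of the cell cycle homology region) and CACGTG (an E-box).
Ube2c (chr2:164769679-164769978, plus strand): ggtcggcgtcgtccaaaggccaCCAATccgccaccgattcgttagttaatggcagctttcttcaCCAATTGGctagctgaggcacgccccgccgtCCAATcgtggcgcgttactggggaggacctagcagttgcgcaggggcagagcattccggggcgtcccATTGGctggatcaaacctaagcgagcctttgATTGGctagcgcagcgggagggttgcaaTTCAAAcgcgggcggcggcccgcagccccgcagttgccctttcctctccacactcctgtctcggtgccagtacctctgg
Ube2t (chr1:134962315-134962614, plus strand): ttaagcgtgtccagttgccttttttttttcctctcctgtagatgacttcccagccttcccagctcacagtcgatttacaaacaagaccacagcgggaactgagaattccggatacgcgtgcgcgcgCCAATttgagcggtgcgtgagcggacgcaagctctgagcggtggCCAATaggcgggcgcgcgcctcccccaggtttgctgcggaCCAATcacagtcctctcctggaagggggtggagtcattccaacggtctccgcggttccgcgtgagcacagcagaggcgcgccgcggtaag
Ube2cbp (chr9:86464867-86465166, minus strand): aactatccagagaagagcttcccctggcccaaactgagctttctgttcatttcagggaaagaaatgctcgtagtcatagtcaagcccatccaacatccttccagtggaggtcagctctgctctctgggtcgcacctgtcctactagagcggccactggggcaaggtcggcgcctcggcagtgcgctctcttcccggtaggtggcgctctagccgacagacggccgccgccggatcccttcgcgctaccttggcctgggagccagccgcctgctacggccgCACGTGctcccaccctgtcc
Ube2k (chr5:65536995-65537294, plus strand): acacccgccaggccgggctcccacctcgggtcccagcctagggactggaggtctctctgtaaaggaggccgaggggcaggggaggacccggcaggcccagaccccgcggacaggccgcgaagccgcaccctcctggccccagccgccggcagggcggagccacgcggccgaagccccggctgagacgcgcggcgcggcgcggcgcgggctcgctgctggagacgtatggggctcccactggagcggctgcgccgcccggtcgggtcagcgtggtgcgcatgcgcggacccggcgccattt

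The Ube2c window held 6 CCAAT boxes and 1 TTTGAA, and 2 of the boxes overlap each other on opposite strands. The Ube2t window held 3 CCAAT boxes, that of Ube2cbp 1 CACGTG, and that of Ube2k none of the 3 motifs. Among 32851 windows of the same length in the RefSeq table, 37.4% held a CCAAT box, 3.37% held 3 or more and 0.0791% held 6 or more, while 17.9% held TTTGAA and 7.15% held CACGTG. Of the 18 expressed members 16 had a window. A CCAAT box was found for 5 of these 16, namely Ube2c, Ube2t, Ube2l3, Ube2d3 and Ube2e1, with log2 ratios of 0.51, 0.62, 0.48, 0.04 and 0.00. Of the 11 without a box, Ube2cbp, Ube2q2, Ube2j1 and Ube2a had log2 ratios of 0.89, 0.60, 0.40 and 0.36. Ube2b, Ube2z, Ube2k, Ube2g1, Ube2n, Ube2h and Ube2r2, also without a box, ran from -0.06 to -0.40. Whether the box goes with the ratio was not tested. The windows of expressed members were rich in CG, with a median of 28.5 CG dinucleotides against 7 in all windows. Windows of several members below that level were as rich, such as that of Ube2q1 (44), and others were poor, such as that of Ube2dnl2 (1). Richness in CG was thus not particular to expressed members. A match describes these letters and not a site in use, and mature oocytes are known not to transcribe.

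At the other end of the mRNA, 2 expressed members carried a cytoplasmic polyadenylation element (TTTTAT or TTTTAAT, sense strand) within the last 100 bases of their annotated transcript. Such elements let stored maternal mRNA gain poly(A) during maturation, and the cDNA here was primed with an oligo(dT) stretch of 24 bases. The 2 members were Ube2t and Ube2q2, and windows of 30 bases from GENCODE vM21 transcripts (GRCm38 coordinates, last exon, outside the coding range) are shown with the element in capitals.
Ube2t (chr1:134974081-134974110, plus strand): aaggatagtttgTTTTATttatcttgtaca
Ube2q2 (chr9:55207430-55207459, plus strand): tttttttgaTTTTATttttcattgcagatt

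In Ube2t the element started 70 bases and in Ube2q2 91 bases before the transcript's end, and in each a polyadenylation signal (AATAAA or ATTAAA) followed, 22 and 23 bases before the end. Of the 5357 expressed genes with an annotated end, 1237 (23.1%) had such an element, against 2 of 18 UBE2 members. The genes with an element had a median log2 ratio of -0.01 and those without 0.01, so over all expressed genes the element did not go with a higher ratio. The 16 UBE2 members without it had a median of -0.03.

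**Figure D3:**
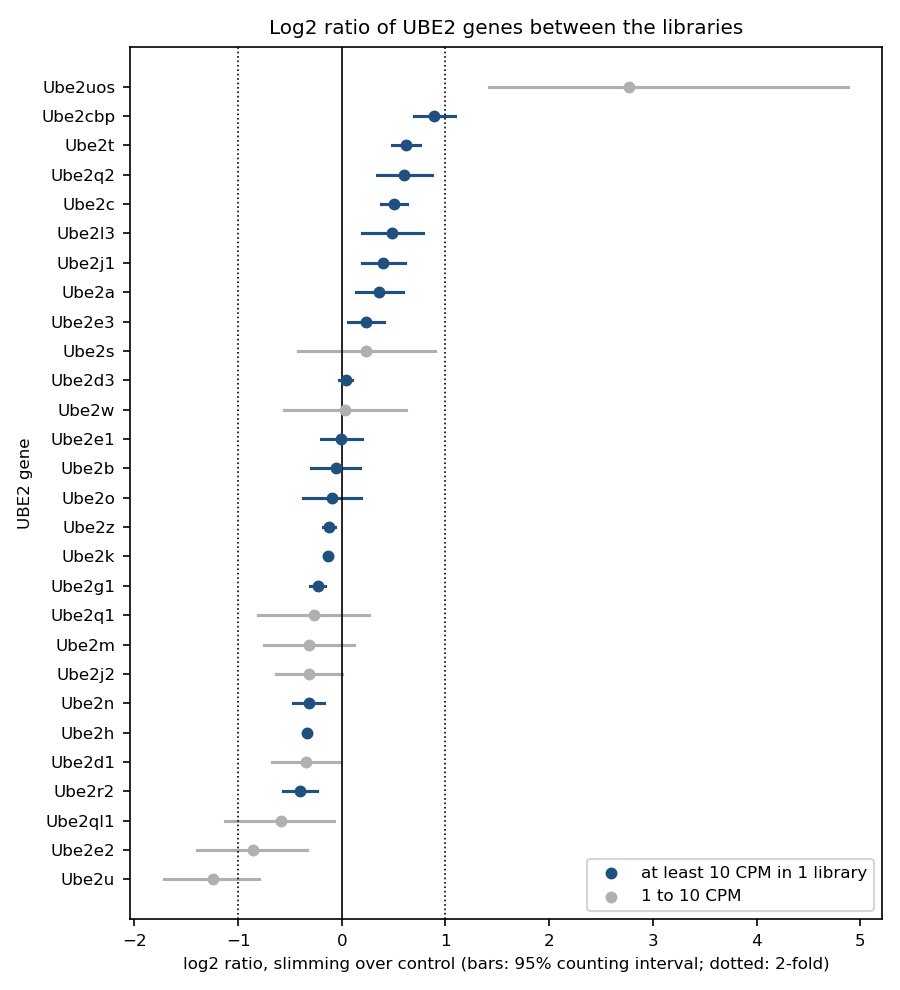
Log2 ratio of slimming over control for 28 UBE2 genes with at least 1 CPM, with the 95% counting interval as bars, blue for expressed members and grey for those between 1 and 10 CPM. The blue points lie between the dotted 2-fold lines, and Ube2u and Ube2uos are the points beyond them.

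Of the RAD6 group, which marks histones and the sliding clamp PCNA, Ube2a (chromosome X) had 18.6 against 14.1 CPM, 1.29-fold higher (log2 0.36, 0.14 to 0.59). Its close paralog Ube2b (chromosome 11) was level at 14.3 and 14.6 CPM (log2 -0.06, -0.29 to 0.18). The ligases these E2 enzymes work with did not share a direction. Rad18, which marks PCNA, had 40.5 against 49.0 CPM (log2 -0.31, -0.44 to -0.17), and Rnf20, which marks histone H2B, had 158 against 184 CPM (log2 -0.25, -0.32 to -0.18). Rnf40, the partner of Rnf20 in 1 complex, had 22.4 against 15.5 CPM (log2 0.50, 0.29 to 0.71).

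Ube2n (chromosome 10), which builds the non-degradative chains of DNA repair and immune signalling, had 685 against 809 counts, or 32.7 and 40.0 CPM, 1.25-fold lower (log2 -0.32, -0.47 to -0.17). It shares 10.7% of its words with the pseudogene Ube2n-ps1. It works only with an inactive E2-like partner, and neither partner reached the level called expressed. Ube2v1 had 3 and 16 counts, and Ube2v2 had no entry. Of the words of the longest Ube2v1 transcript 91.2% also occur in other transcripts, mostly those of Gm20431. Gm20431 overlaps Ube2v1 on the same strand and had 3 and 1 counts. Gm11476, which overlaps Ube2v1 on the opposite strand, had 183 and 130 counts. The treatment of reads with several matches is not given, so the low count of Ube2v1 is uncertain. Rnf8, a ligase that uses Ube2n at DNA breaks, was abundant at 297 against 221 CPM, 1.32-fold higher (log2 0.40, 0.34 to 0.45). The signalling ligase Traf6 had 3.58 against 2.37 CPM (log2 0.56, 0.02 to 1.12).

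Members that act at the endoplasmic reticulum or build degradative chains were mixed. Ube2j1, a membrane-anchored E2 of the disposal of misfolded proteins, had 22.1 against 16.4 CPM, 1.32-fold higher (log2 0.40, 0.19 to 0.61), while its ligase Syvn1 was level at 31.4 and 30.5 CPM (log2 0.01, -0.15 to 0.17). Ube2j2, its relative, stood under the level called expressed with 7.54 against 9.19 CPM (log2 -0.32). Ube2g2, also of this group, had only 5 and 14 counts. Ube2r2 (chromosome 4), an E2 of the cullin ligases, had 548 against 683 counts, or 26.2 and 33.7 CPM, 1.32-fold lower (log2 -0.40, -0.56 to -0.23), the lowest ratio among expressed members. Its relatives under other names went the other way. Cdc34 had 605 against 536 CPM (log2 0.14, 0.11 to 0.18) and Cdc34b had 522 against 367 CPM (log2 0.47, 0.43 to 0.52).

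The small families of paralogs D, E and Q each held both expressed and scarce members. In the E family Ube2e3 had 29.8 against 24.8 CPM (log2 0.23, 0.06 to 0.40). Ube2e1 was level at 20.2 and 19.9 CPM (log2 0.00, -0.20 to 0.20), but 59.0% of its words are shared, mostly with Nkiras1, which overlaps it on the opposite strand and had 243 and 183 CPM. Ube2e2 had 49 against 84 counts, or 2.34 and 4.15 CPM (log2 -0.85, -1.40 to -0.33). In the D family Ube2d1 had 7.07 against 8.79 CPM (log2 -0.35, -0.67 to -0.02), under the abundant Ube2d3, and Ube2d2b, Ube2dnl1 and Ube2dnl2 had no entry. In the Q family Ube2q1 (2.72 and 3.21 CPM) and Ube2ql1 (2.58 and 3.80 CPM) stood below Ube2q2, at log2 ratios of -0.27 (-0.81 to 0.27) and -0.59 (-1.12 to -0.07).

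Ube2l3 (chromosome 16), which serves HECT and RBR ligases, had 240 against 162 counts, 1.40-fold higher (log2 0.48, 0.19 to 0.78). Like Ube2q2, Ube2l3 reached 10 CPM in the slimming library alone, so its place among expressed members depends on its being higher there. The numbers of expressed members above 0 and of intervals on the higher side include Ube2l3. Of its words 58.9% are shared, mostly with Ydjc, which overlaps it on the opposite strand and had 23 and 22 counts. Its HECT partner Ube3a had 110 against 138 CPM, lower in the slimming library (log2 -0.36, -0.44 to -0.28), and its RBR partner Arih1 had 2.96 and 2.57 CPM (log2 0.17, -0.38 to 0.73). The large Ube2o, which joins E2 and E3 functions in 1 protein, was level at 10.3 and 10.8 CPM (log2 -0.09, -0.37 to 0.18). Ube2w, which modifies protein N-termini, had 53 and 49 counts (log2 0.03, -0.56 to 0.62).

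The E2 enzymes of NEDD8 were scarce in both libraries, although Nedd8, its E1 subunits and Rbx1 were expressed. Ube2m, the main E2 of NEDD8, had 85 and 100 counts, or 4.06 and 4.94 CPM (log2 -0.31, -0.75 to 0.12), beside Nedd8 at 286 against 183 CPM, 1.53-fold higher (log2 0.62, 0.56 to 0.67). The NEDD8 E1 subunits Uba3 and Nae1 had log2 ratios of 0.29 and 0.11, and Rbx1, the RING protein that takes NEDD8 from Ube2m, had 184 against 213 CPM (log2 -0.24, -0.31 to -0.18). Ube2f, the other E2 of NEDD8, had 0 and 1 counts, and its partners Rnf7 and Cul5 had 23 and 44 counts and 208 and 219 counts. Ube2l6, Isg15 and Uba7, the E2, modifier and E1 of the interferon-induced ISG15 relay, all had no entry. In the SUMO relay Uba2, a subunit of the E1, had 144 against 178 CPM (log2 -0.34, -0.41 to -0.27), its partner Sae1 13.5 against 10.2 CPM (log2 0.37, 0.11 to 0.64) and the ligase Pias1 238 against 221 CPM (log2 0.08, 0.02 to 0.13).

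Ube2u and Ube2uos lie in the same locus and were far apart between the libraries in opposite directions, both at low counts. Ube2u (ENSMUSG00000069733, chromosome 4), an E2 enzyme, had 60 against 135 counts, or 2.86 and 6.67 CPM, 2.37-fold lower (log2 -1.24, -1.71 to -0.80). Ube2uos (ENSMUSG00000085871, chr4:100523247-100527801 on GRCm38, within the span of Ube2u and on the other strand) had 32 against 4 counts, 6.83-fold higher (log2 2.77, 1.42 to 4.88). With a pseudocount of 5 in place of 0.5 its log2 ratio was 1.96, so the size of this difference rests on few counts. Their annotated exons do not overlap. These were the 1 higher and 1 lower member past 2-fold among the 11 between 1 and 10 CPM, where 16.7% and 16.5% of 5296 genes were that far apart. At 1.5-fold the 11 gave 1 higher and 3 lower (Ube2u, Ube2e2 and Ube2ql1), against 27.4% and 26.5%. In all 4 were higher (51.0% of genes) and 7 lower (49.0%), the interval left out 0 for 6 (55.8%), and the authors' deposited table marked 2 (34.1%). Their median log2 ratio was -0.31.

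**Figure D4:**
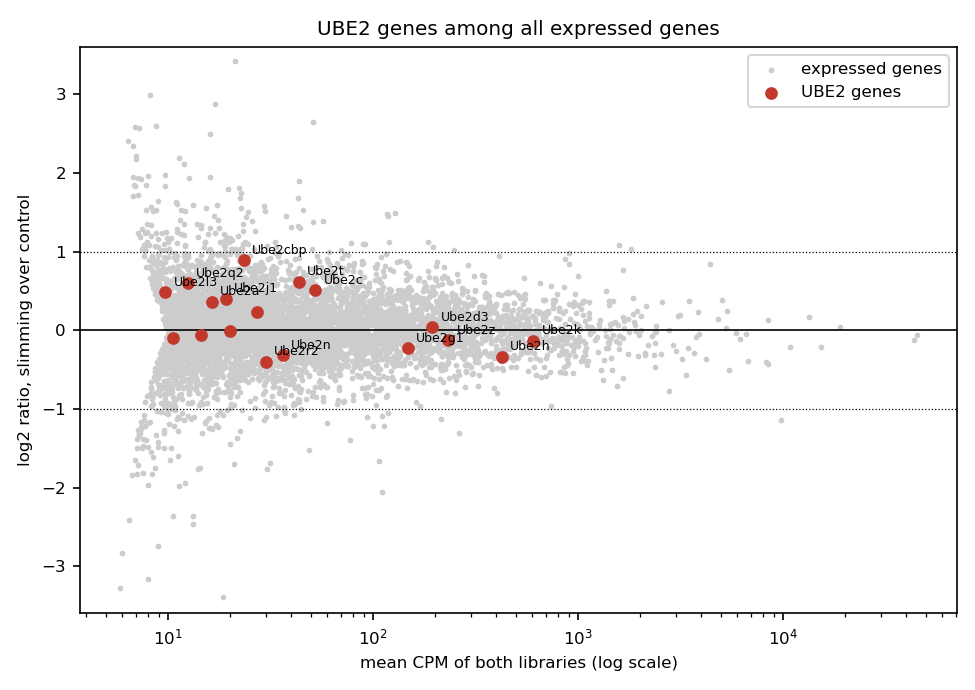
Log2 ratio of slimming over control against mean CPM (log axis) for the 5714 expressed genes in grey and the 18 expressed UBE2 genes in red, with dotted lines at 2-fold. The red points lie inside the grey cloud, with Ube2cbp nearest to the upper line. Of the 5 with a mean of at least 100 CPM, 4 lie below 0.

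The rest of the ubiquitin pathway was described with 7 lists of E1 enzymes, modifiers, other E2 enzymes and ligases. Of the 6 expressed E1 enzymes 3 were higher and 3 lower, and 0 were 2-fold apart, with Atg7 at a log2 ratio of -0.38 and Sae1 at 0.37 the farthest. Among 7 expressed modifiers 4 were higher and 3 lower, and the polyubiquitin gene Ubb was 2.64-fold lower at 43.3 against 112 CPM (log2 -1.40, -1.51 to -1.29), the 1 expressed gene of the 7 lists past 2-fold. Within the modifiers, Nedd8 was the gene next farthest from 0, in the higher direction (log2 0.62). Among 6 expressed E2 enzymes with other names 4 were higher and 2 lower, with Aktip, an inactive E2-like protein, 1.91-fold lower at 10.8 against 20.2 CPM and Cdc34b 1.39-fold higher.

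Counts of lower genes in the ligase lists stand beside 48.6% of all expressed genes below 0. Of 25 expressed RING and cullin genes 16 were lower and 9 higher in the slimming library (15 and 10 with total counts), with a median log2 ratio of -0.12 against 0.02 for all expressed genes. Uhrf1, a reader of methylated DNA, was 1.81-fold lower at 66.4 against 118 CPM, and Rnf114, a ligase of the egg-to-embryo transition, 1.61-fold higher at 1241 against 756 CPM. Of 13 expressed HECT ligases 10 were lower and 3 higher (9 and 4 with total counts; median -0.12), with Smurf1 at 0.41 the farthest on the higher side. The anaphase-promoting complex was divided, with 7 of 14 expressed members higher and 7 lower (8 and 6 with either other scaling; median 0.10), and Cdc26 and the activator Fzr1 were 1.65-fold and 1.56-fold higher. Of 9 expressed SUMO ligases and proteases 6 were higher and 3 lower (median 0.18), with Pias2 1.60-fold higher and Senp5 1.40-fold lower. Cdc26 (10.6 against 6.27 CPM) and Pias2 (15.7 against 9.58 CPM) reached 10 CPM in the slimming library alone. Senp5 (7.88 against 10.8 CPM) reached it in the control library alone. Over all 7 lists, 1 of 80 expressed genes was at least 2-fold lower (Ubb) and 0 at least 2-fold higher, against 1.94% and 2.73% of all expressed genes.

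**Figure D5:**
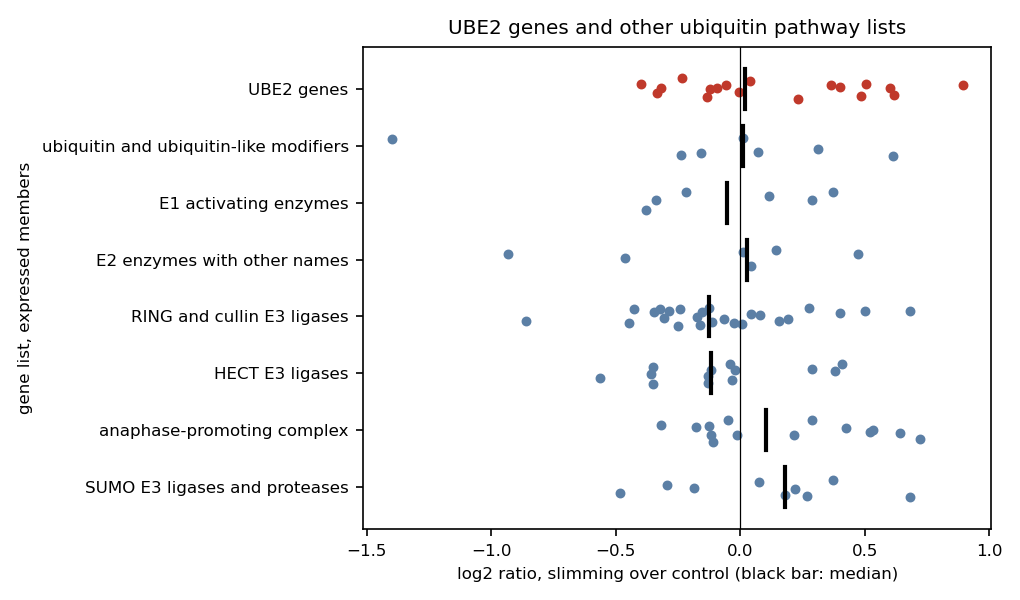
Log2 ratio of slimming over control for each expressed gene of the UBE2 family (red) and of the 7 other ubiquitin pathway lists (blue), 1 point per gene with a black bar at the median of each list. The UBE2 points spread on both sides of 0, and Ubb is the single point beyond -1.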

How the data were processed

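RNA with poly(A) tails from pooled oocytes was primed with oligo(dT), tailed and put through 18 plus 14 PCR cycles before SOLiD 4 sequencing, per the labels' protocols. The submitters' processing notes name mm9. Not given in the sources used here are aligner, counting program, read length, strand and the handling of reads with several matches.

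The authors deposited raw counts per Ensembl gene, slimming before control per the file headers. Of 36227 genes, 18210 are blank and were read as no count. A deposited log2 ratio scaled by the authors, a deposited score for each gene (a z value), a deposited p-value and deposited q-values set the reads of 2 libraries against each other and served as no test. Symbols, exons, longest transcripts and shared 50-base words came from GENCODE vM21 (GRCm38, later than mm9), promoters from RefSeq (GRCm38.p6). Of 37 members, 31 had a promoter there.

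TMM factors (1.01 and 0.989) came from edgeR 4.0.16 under R 4.3.3. Each count was raised by 0.5 for the log2 ratio, and intervals are Clopper-Pearson, from scipy 1.17.1. The length trend was a lowess fit (statsmodels 0.14.6). The calculation of ratios, intervals and counts was tried on simulated Poisson counts scaled by total counts. These held no PCR copies and no spread between mice, so the trial checks the arithmetic alone and not how well the intervals suit these libraries. Expressed members were all named, as were a set list of partners and the 2 expressed genes of each list farthest from 0. Cdc34, the genes that share sequence with a member, the 1.5-fold step and the Ube2c promoter were chosen after their values were seen. The values of 1 member and of some genes that this rule names are not reported here; they stay in the counts and medians. Members and lists were chosen with earlier results of these data known. Alternatives were other scalings (total counts, DESeq2 1.42.0), filters, a pseudocount of 5, removal of the length trend, levels without length and leaving out members.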

Additional observations from a re-analysis of the deposited data

How the results depend on the processing

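Scaling by total counts or by DESeq2 size factors and a pseudocount of 5 left the numbers of expressed UBE2 genes past 2-fold and 1.5-fold as they were. The numbers above and below the median of expressed genes also stayed with a pseudocount of 5. Under another scaling they could not change, because it moves every ratio by the same amount. Both scalings moved Ube2e1 above 0, giving 10 members above and 8 below 0. With the length trend removed, 2 members were at least 1.5-fold higher in place of 3, because Ube2t passed under the step. With genes from 1 CPM included, 1 member was at least 2-fold higher and 1 lower, 3 were at least 1.5-fold lower, 16 lay below the median of the genes tested, and 3 list genes were at least 2-fold lower. Without a filter these numbers were 1 member 2-fold higher, 3 members 2-fold lower, 5 members 1.5-fold lower, 14 above and 17 below the median, and 1 list gene higher and 7 lower by 2-fold. Without the 7 expressed members that share more than 10% of their words with other genes, 5 lay above the median and the family's median stood -0.07 from that of the expressed genes, against 0.00 with them. Without transcript length, Ube2k made up 30.6% (slimming) and 31.1% (control) of the family. Leaving out Ube2cbp and Ube2uos, chosen after seeing the data, left 2 members at least 1.5-fold higher. Of 80 ratios of single members under other settings, 78 stayed within the counting interval of the value given and 0 changed sign where that interval left out 0. No paired analysis was possible because each group is 1 library. No library could be left out for the same reason. At 1 to 10 CPM, members rest on 32 to 186 counts in their larger library, which limits what ratios there can show.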
